A study of Homo sapiens with 4 samples.

Results

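The clustered protocadherin genes lie in 3 neighbouring sub-clusters, alpha, beta and gamma, on the long arm of chromosome 5. They were followed in K562 cells through maps of H3K9me2, a histone mark in which lysine 9 of H3 carries 2 methyl groups. The members were all deposited peaks that overlap chr5:140165000-140893000 on hg19, a stretch of 728 kb, whatever their height or width. There were 94 and 96 such peaks in the 2 control libraries and 87 and 97 in the 2 knockout libraries, which is 374 of 1000000 deposited peaks. Alpha was taken as the first 227 kb (chr5:140165000-140392000), beta as 197 kb (chr5:140430000-140627000) and gamma as the last 183 kb (chr5:140710000-140893000). A stretch of 38 kb lies between alpha and beta, and one of 83 kb between beta and gamma. The 1 Mb on either side of the locus served as flanks.

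All 4 libraries came from K562, an established human myeloid leukemia line, grown without any further agent that the labels name. The control cells had received a CRISPR guide against HPRT, a metabolic gene that serves as a control target, and the knockout cells a guide against the homeodomain transcription factor gene CUX1. CUT&RUN was used for mapping: an antibody holds a nuclease at the mark, and the DNA that it cuts free is sequenced. Whether the edited cells were pools or single clones, and how much CUX1 was left, was not stated in the sources at hand. Peak lists hold no measure of CUX1 itself or of marker genes of the line, so neither was checked. The labels number the libraries within each group but name no separate cultures, and the p-values therefore reflect library-to-library spread that may be purely technical.

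Clustered protocadherins are cell-surface adhesion proteins that neurons use to tell their own branches from those of other cells. In alpha and gamma, each variable exon has its own promoter and is spliced to constant exons shared by the sub-cluster, while each beta gene is a single coding exon. A neuron uses only a few of these promoters, chosen largely at random on each chromosome, and the binding of CTCF and DNA methylation at the promoter are known to take part in that choice. H3K9me2 is laid down mainly by the enzymes G9a and GLP and covers broad stretches of mostly silent chromatin. K562 is a blood line and is not a model of the neuronal choice.

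Most promoters of the 3 sub-clusters share in part a short stretch before the transcription start. Examples are printed here to show its common core and how the bases around it vary within and between sub-clusters. RefSeq on GRCh38.p14 lists 53 coding genes in the family (15 alpha, 16 beta, 22 gamma), and promoter sequence was at hand for 47 of them, with 25 promoters for 20 gamma genes. In each line the capitals mark CGCT, the letters at the core of an element known from many protocadherin promoters, and all are on the plus strand, written 5′ to 3′.

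PCDHA1: cattggccacatgatgtCGCTgtacaccac
PCDHA4: ttggagccacatgatgtCGCTctttaccac
PCDHA11: ttttaggcgcaaggtgtCGCTctttacttg
PCDHB9: tggaagccacaaggtggCGCTgcagactga
PCDHB10: tggaggccacacggtggCGCTgcaggctaa
PCDHB14: atggagacacatggtggCGCTacaggataa
PCDHGA3: gttaggcctcttagtgtCGCTgttgaccac
PCDHGA9: cttaggactctgagcgcCGCTgttgatcaa

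On GRCh38.p14 the PCDHA1 stretch lies at chr5:140786085-140786114, that of PCDHA4 at chr5:140806978-140807007 and that of PCDHA11 at chr5:140868882-140868911. The PCDHB9 stretch lies at chr5:141187073-141187102, that of PCDHB10 at chr5:141192298-141192327 and that of PCDHB14 at chr5:141223262-141223291. The PCDHGA3 stretch lies at chr5:141343766-141343795 and that of PCDHGA9 at chr5:141402713-141402742. The peaks are on hg19, so these positions cannot be set against them, and coverage was read by sub-cluster and window and not by gene.

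CGCT, searched on both strands of the 300 bases from 250 before to 50 after each start, was present in 12 of 13 alpha, 14 of 14 beta and 25 of 25 gamma promoters, and in 70.0% of all 35116 promoters in the table. The longer forms are rarer and all contain CGCT, so they overlap it. ATGTCGCT was present in 9 of 13 alpha promoters, in 0 of 14 beta and 0 of 25 gamma promoters, and in 0.234% of all promoters. GTGGCGCT was present in 13 of 14 beta promoters and 1.15% of all, and in no alpha or gamma promoter. CCGCTGTT was present in 8 of 25 gamma promoters and 0.738% of all, and CGTCGCTG in 3 of 25 and 0.874%, and neither was found in alpha or beta. In PCDHA1 the core begins 38 bases before the start, in PCDHB10 also 38, and in PCDHGA9 48. The longer forms were chosen after the sequences had been read, and a match is a description only. Not every printed line carries a longer form: that of PCDHA11 lacks ATGTCGCT, and that of PCDHGA3 holds neither CCGCTGTT nor CGTCGCTG.

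Each library was deposited as its own list of 250000 broad peaks, and read depth was not stated in the sources at hand. Percent covered, the share of bases under at least 1 peak, was 22.8% and 22.4% in the control libraries and 13.9% and 19.3% in the knockout libraries over chromosomes 1 to 22 and X. Knockout replicate 1 stood apart, with a median peak width of 1324 bp against 1900 to 2335 bp in the other lists, and its list ended at a −log10 p of 1.49, the highest end of the 4. Knockout replicate 2 also covered less than both controls. The differences by stretch and the ratios are therefore given with and without knockout replicate 1. Peak names carry a tag "sub54" in control replicate 1 and "cux1kd" in the knockout libraries, which the labels do not explain.

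Across the whole locus, H3K9me2 peaks covered 35.5% and 35.1% of bases in the control libraries, and 24.3% and 33.4% in the knockout libraries. The groups did not overlap, but nearly all of the gap came from knockout replicate 1, since replicate 2 lay close to both controls. The control mean was 35.3% ± 0.275 (SD, n = 2) and the knockout mean 28.8% ± 6.38 (SD, n = 2), a difference of -6.45 points. The two-sided exact permutation test over libraries gave p = 0.333, the smallest it can give with 2 against 2. Without knockout replicate 1 the difference was -1.94 points. With 1 limit on −log10 p or on −log10 q for all lists it was +6.81 or +10.0.

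The locus was also tested beside all other windows of its length. Among 3857 such windows, limma called 155, or 4.02%, at a Benjamini-Hochberg adjusted p of 0.05, and the locus was not among them. Its difference of -6.45 points had a standard error of 6.91 and a 95% interval from -20.0 to 7.10, with an adjusted p of 0.514 by limma. A difference of either sign and of several points is within that interval. When the window values were quantile normalized, which gives every library the same distribution of values, the difference was +4.39 points (95% interval -1.02 to 9.80, adjusted p = 0.458 by limma), and 45 windows, or 1.17%, were called. The direction at the locus thus turned with the scaling, and it passed the test under neither.

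**Figure D1:**
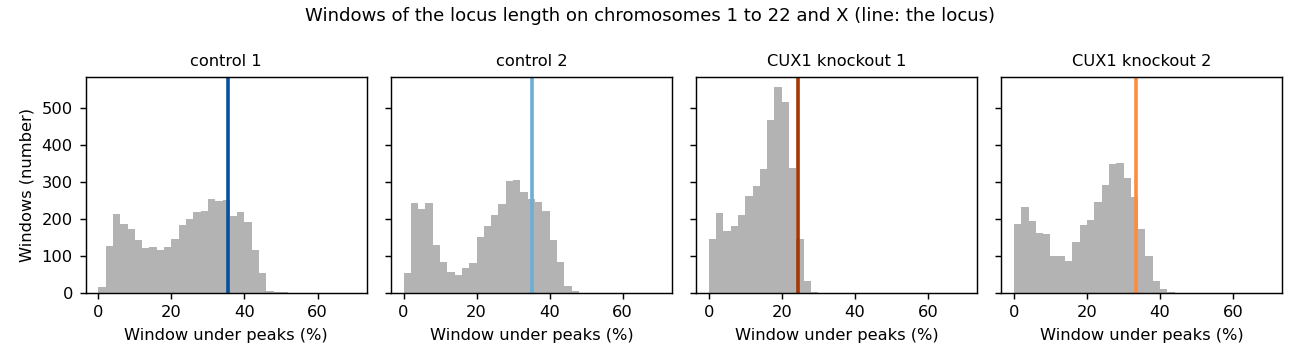
Histograms of the percent of bases under peaks (horizontal axis) in windows of the locus length on chromosomes 1 to 22 and X, with the number of windows on the vertical axis and one panel for each library. The coloured line is the protocadherin locus, which sits in the upper part of each distribution and nearest the top in knockout replicate 1.

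The locus was more densely covered than most windows of its length in every library. The median window of its length was covered to 26.6% and 27.3% in the control libraries and to 16.6% and 23.6% in the knockout libraries, below the locus in each. Its place among these windows, as plotted by library, was the percentile 77.8 and 78.4 in the control libraries and 96.1 and 89.7 in the knockout libraries. Relative to the share of chromosomes 1 to 22 and X covered in the same list, the locus stood at 1.56 and 1.57 in the control libraries and at 1.74 and 1.73 in the knockout libraries. On this relative scale both knockouts were above both controls (exact permutation p = 0.333), although their plain percentages were lower. The log2 ratio differed by 0.15 without knockout replicate 1. With each list cut to an equal covered length the ratios were 1.72 and 1.77 against 1.74 and 1.69, which overlap. They also overlapped with 1 limit on −log10 p and with the strongest 100000 peaks. Both knockouts stayed above both controls with 1 limit on −log10 q (log2 difference 0.36). The same held with gaps of up to 2000 bp between peaks filled (0.15).

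In the flanks, too, knockout replicate 1 was the lowest, while knockout replicate 2 was level with the controls. Together the flanks were covered to 32.1% and 31.3% in the control libraries and to 20.5% and 32.3% in the knockout libraries. The ratio of locus to flanks was 1.10 and 1.12 in the control libraries and 1.19 and 1.03 in the knockout libraries, so the knockouts lay on either side of the controls. The log2 ratio differed by -0.01 between the groups (exact permutation p = 1). Without knockout replicate 1 it differed by -0.11. The order of the knockouts changed between measures: replicate 1 had the lowest percentage and the highest ratio to the flanks.

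**Figure D2:**
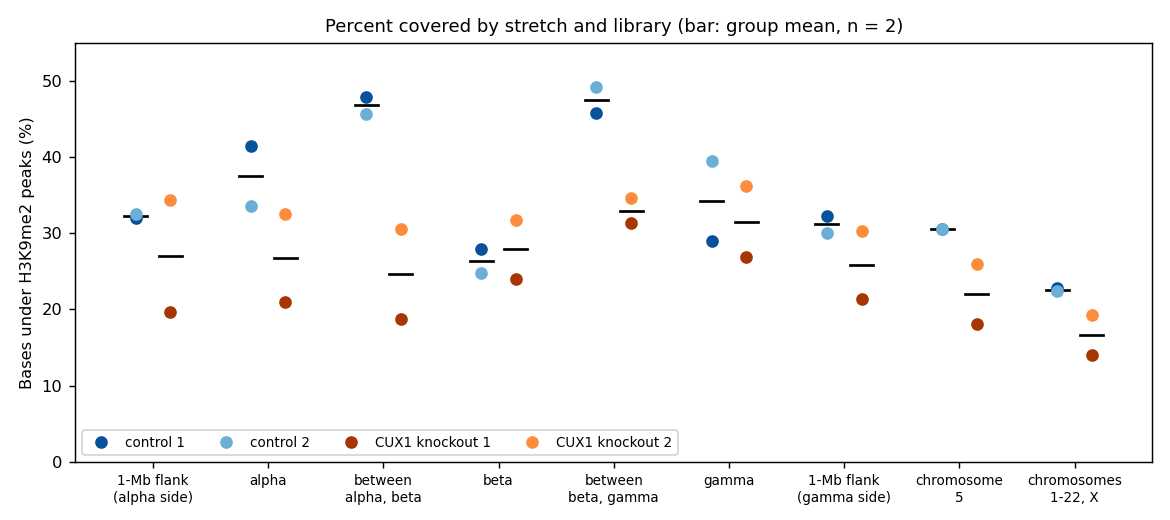
Percent of bases under H3K9me2 peaks (vertical axis, from 0) for the 3 sub-clusters, the stretches between them, the 1-Mb flanks, chromosome 5 and chromosomes 1 to 22 and X. Each point is a library and each bar a group mean; the knockouts lie below both controls in alpha and in the stretches on both sides of beta, and overlap them in beta and gamma.

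In alpha, the sub-cluster with the PCDHA genes and the C-type genes PCDHAC1 and PCDHAC2, peaks covered 41.4% and 33.6% in the control libraries and 21.0% and 32.5% in the knockout libraries. Both knockouts were below both controls, with knockout replicate 2 only just under control replicate 2. The means were 37.5% ± 5.54 and 26.7% ± 8.10 (SD, n = 2 each), a difference of -10.8 points (exact permutation p = 0.333). Without knockout replicate 1 the difference was -5.07 points, and with 1 limit on −log10 p or q it was +4.01 or +12.1. At equal covered length both knockouts stayed below both controls (-2.24 points). So they did with the strongest 100000 peaks (-5.06) and with gaps filled (-12.4). Relative to the flanks alpha stood at 1.29 and 1.07 in the control libraries and at 1.02 and 1.00 in the knockout libraries. The log2 ratio differed by -0.22, and by -0.23 without knockout replicate 1. With 1 limit on −log10 p these ratios overlapped, and with 1 limit on −log10 q their log2 difference was 0.38. Among 12253 windows of the same length limma called 289, or 2.36%, and alpha did not pass (95% interval -24.9 to 3.34, adjusted p = 0.380 by limma). After quantile normalization limma called 0 windows, or 0.0%, with 1236 at an unadjusted p under 0.05, and alpha differed by -0.52 points (adjusted p = 0.972).

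The stretch between alpha and beta showed the widest gap between group means inside the locus. Peaks covered 47.9% and 45.7% of these 38 kb in the control libraries and 18.8% and 30.5% in the knockout libraries, a difference of -22.1 points (exact permutation p = 0.333). Relative to the flanks of the same library, the values were 1.49 and 1.46 in the control libraries and 0.914 and 0.944 in the knockout libraries, so here the knockouts were alike as well. The log2 ratio differed by -0.67 (exact permutation p = 0.333, the smallest possible). The differences without knockout replicate 1 were -16.2 points and -0.64. With 1 limit on −log10 p the groups overlapped (11.6% and 36.5% against 18.8% and 10.7%). With 1 limit on −log10 q, where control replicate 1 had no peak left here, the difference was +2.51 points. At equal covered length both knockouts stayed below both controls (47.9% and 36.5% against 18.8% and 10.7%, -27.4 points). The same held with the strongest 100000 peaks (-18.7 points) and with gaps of up to 2000 bp between peaks filled (-22.1 points). The stretch held 4 and 6 peaks in the control libraries and 4 and 2 in the knockout libraries, so each value rests on a handful of peaks. It was 1 of 5 stretches compared inside the locus, and adjusting over them could only raise these p-values.

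Beta, the row of single-exon PCDHB genes, was covered to 27.9% and 24.8% in the control libraries and to 24.0% and 31.8% in the knockout libraries. The groups overlapped, and the difference of +1.51 points was smaller than the spread between the knockouts (exact permutation p = 1). In the controls beta was the least covered of the 5 stretches inside the locus. Relative to the flanks it stood at 0.868 and 0.794 in the control libraries and at 1.17 and 0.983 in the knockout libraries, so on this scale both knockouts were above both controls (log2 difference 0.37, exact permutation p = 0.333). Without knockout replicate 1 the plain difference was +5.42 points and that of the log2 ratio 0.24. With 1 limit on −log10 p or q the plain difference was +7.87 or +7.45 points, and at equal covered length +2.79. Both knockouts were above both controls in each of these settings. With the strongest 100000 peaks the groups overlapped (-0.0137 points). The ratios to the flanks overlapped at equal covered length (log2 difference 0.0085), with 1 limit on −log10 p (0.15) and with 1 limit on −log10 q (-0.16). They also overlapped with the strongest 100000 peaks (0.38), and stayed apart with gaps of up to 2000 bp between peaks filled (0.32).

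In windows of the beta length, limma called 278 of 14095, or 1.97%, and beta did not pass (adjusted p = 0.902). After quantile normalization limma called 0 of the 14095 windows, or 0.0%, with 1369 at an unadjusted p under 0.05. On that scale beta stood at 24.3% and 21.2% in the control libraries and at 34.7% and 32.1% in the knockout libraries. The groups were well apart there, with a difference of +10.7 points (95% interval 1.35 to 20.0) and an unadjusted p of 0.0274 by limma. The adjusted p was 0.461 by limma, so beta did not pass on this scale either.

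The stretch between beta and gamma, which holds SLC25A2, a mitochondrial carrier gene, and TAF7, a general transcription factor gene, in the order of genes given by RefSeq, was covered to 45.8% and 49.2% in the control libraries. In the knockouts the values were 31.4% and 34.6%. This was a difference of -14.5 points with no overlap (exact permutation p = 0.333), and of -12.9 without knockout replicate 1. At equal covered length it was -1.04 points, and with 1 limit on −log10 p or q both knockouts were above both controls, by 12.0 or 17.1 points. Relative to the flanks the values were 1.43 and 1.57 in the control libraries and 1.53 and 1.07 in the knockout libraries, which overlap (log2 difference -0.23, and -0.48 without knockout replicate 1). At the edge between beta and this stretch coverage stepped up in every list: from the last 20 kb of beta to the next 20 kb it went from 35.1% to 58.9% and from 25.0% to 59.7% in the control libraries. In the knockouts it went from 24.3% to 45.2% and from 37.1% to 53.2%. Of the 6 edges of the sub-clusters, the end of alpha was the only other one with a higher value past it in every list, from 33.8% to 55.6% and from 31.8% to 63.2% in the control libraries. There the knockout libraries went from 26.3% to 31.1% and from 0 to 20.4%. These edges were singled out after their values were seen, and the steps were not tested.

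Gamma, with the PCDHGA, PCDHGB and PCDHGC genes, was covered to 29.0% and 39.4% in the control libraries and to 26.8% and 36.2% in the knockout libraries. The libraries alternated, so the groups overlapped, and the difference of -2.72 points was smaller than the spread within each group (exact permutation p = 0.667). Without knockout replicate 1 the difference was +1.95 points, and with 1 limit on −log10 p or q it was +10.2 or +8.45. In windows of the gamma length limma called 248 of 15166, or 1.64%, and gamma did not pass (95% interval -17.6 to 12.1, adjusted p = 0.845 by limma). After quantile normalization limma called 0 windows, or 0.0%, with 1499 at an unadjusted p under 0.05, and gamma differed by +7.48 points (adjusted p = 0.640).

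Inside the locus the coverage of 20-kb windows varied widely from window to window and from library to library. The 37 windows ranged from 2.50% to 69.1% in control replicate 1 (median 37.8%) and from 0 to 68.8% in control replicate 2 (median 34.8%). In the knockouts they ranged from 0 to 59.4% (median 24.3%) and from 0 to 60.4% (median 32.2%). A window held a median of 5 peak edges in each control and of 4 and 6 in the knockout libraries, with at most 10. Pearson's r of window coverage between libraries was between -0.06 and 0.22 in the locus over 37 windows, and between 0.31 and 0.45 over 132482 windows genome-wide. The genome-wide range includes sparse and dense regions, and neighbouring windows share peaks.

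**Figure D3:**
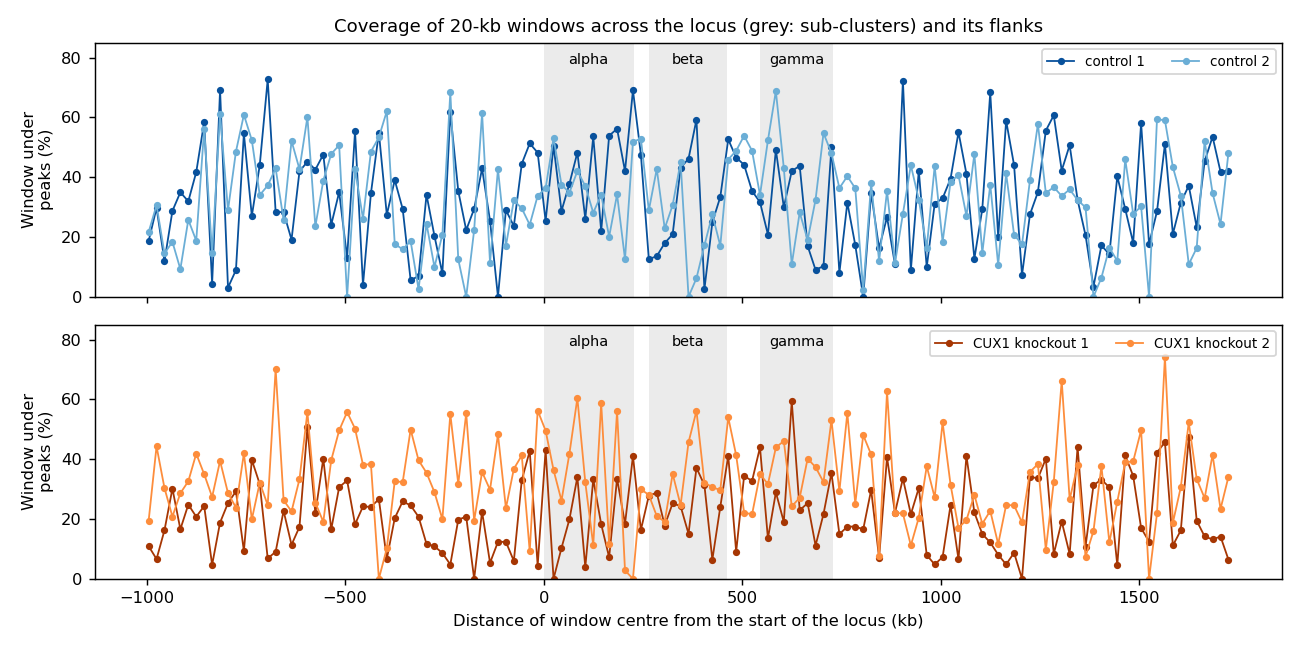
Percent of each 20-kb window under peaks (vertical axis) against the distance of the window centre from the start of the locus in kb (horizontal axis), with controls above and knockouts below. Grey bands are alpha, beta and gamma; windows reach from 0 to about the same heights inside the locus as in the flanks.

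No 20-kb window of the locus passed limma, and none did genome-wide, 0 of 132482 or 0.0%. On simulated data this test recovered 0% of differences of 60 and of 40 points in 20-kb windows. It could therefore hardly have called a window, and the lack of calls, here and for the windows named below, does not show that coverage was unchanged. At an unadjusted p under 0.05 there were 2 windows in the locus and 8588 genome-wide, and the smallest adjusted p in the locus was 0.736. In 11 of 37 windows both knockouts were below both controls, which is 29.7%, against 28.6% of all windows. In 4 of 37 both knockouts were above both controls, against 8.58% of all windows. After quantile normalization the counts were 4 lower and 11 higher, against 16.1% and 17.4% of all windows. All 4 windows above stayed above and 4 of the 11 below stayed below, while the other 7 came to overlap and 7 that had overlapped came to lie above. The median difference in the locus was -4.86 points and that of all windows -5.83.

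By sub-cluster, both knockouts were below both controls in 4 of 12 windows of alpha, 1 of 10 of beta and 2 of 10 of gamma. In the stretch between beta and gamma 3 of 4 windows were lower in both knockouts. The share over all windows was 28.6%. Both knockouts were above both controls in 1 window of alpha, 1 of beta and 2 of gamma, against 8.58% of all windows. The median difference was -14.2 points in alpha, +3.03 in beta and -4.40 in gamma, against -5.83 over all windows. After quantile normalization the counts below were 2 of 12 in alpha, 1 of 10 in beta, 0 of 10 in gamma and 0 of 4 between beta and gamma. Those above were 2, 5, 3 and 1. The shares over all windows were then 16.1% below and 17.4% above. With so few windows in each stretch, these counts are a description only.

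The window of alpha with the highest mean over the 4 libraries was chr5:140240001-140260000, covered to 48.2%, 42.1%, 34.0% and 60.4% in control replicates 1 and 2 and knockout replicates 1 and 2. The knockouts were the lowest and the highest of the 4, and the window did not pass. The window of alpha with the lowest p was chr5:140380001-140400000, at the beta-side end of the sub-cluster, with 69.1% and 51.8% in the control libraries and 41.1% and 0 in the knockout libraries. No peak of knockout replicate 2 reached into it. The window runs past the end of alpha at chr5:140392000, so part of its coverage belongs to the stretch between alpha and beta. The difference was -39.9 points (SE 15.9, adjusted p = 0.736 by limma), and it did not pass.

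In beta the window with the highest mean was chr5:140540001-140560000, with 59.3% and 6.21% in the control libraries and 37.1% and 56.2% in the knockout libraries. Here the controls were the extremes. The window of beta with the lowest p was chr5:140560001-140580000, right beside it, with 2.50% and 17.2% in the control libraries and 31.3% and 32.2% in the knockout libraries. Both knockouts were higher by a similar amount, and the difference of +21.9 points did not pass (adjusted p = 0.741 by limma).

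In gamma the same window, chr5:140740001-140760000, had the highest mean and the lowest p. It was covered to 49.2% and 68.8% in the control libraries and to 28.9% and 43.9% in the knockout libraries. Both knockouts were lower, and the difference of -22.6 points did not pass (adjusted p = 0.759 by limma).

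Peaks in the locus were about as wide as others of the same list in the control libraries, and wider than others of the same list in the knockout libraries, which was not tested. The median width in the locus was 2376 and 2396 bp in the control libraries, near the medians of 2335 and 2275 bp of all their peaks. In the knockouts it was 1630 and 2283 bp, against 1324 and 1900 bp over all peaks. Peaks of at least 5 kb numbered 11 and 11 in the control libraries and 4 and 9 in the knockout libraries. These are 11.7% and 11.5% of the locus peaks against 12.6% and 11.9% of all peaks in the control libraries, and 4.60% and 9.28% against 2.66% and 7.96% in the knockout libraries, so the lower counts go with the lists as a whole. The median fold over background was 1.78 and 1.74 in the control libraries and 1.94 and 1.80 in the knockout libraries, and no peak of the locus reached a q of 0.05, which only 14, 310, 6 and 458 peaks of the whole lists did. The smallest q was 0.504 and 0.484 in the control libraries and 0.399 and 0.130 in the knockout libraries.

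**Figure D4:**
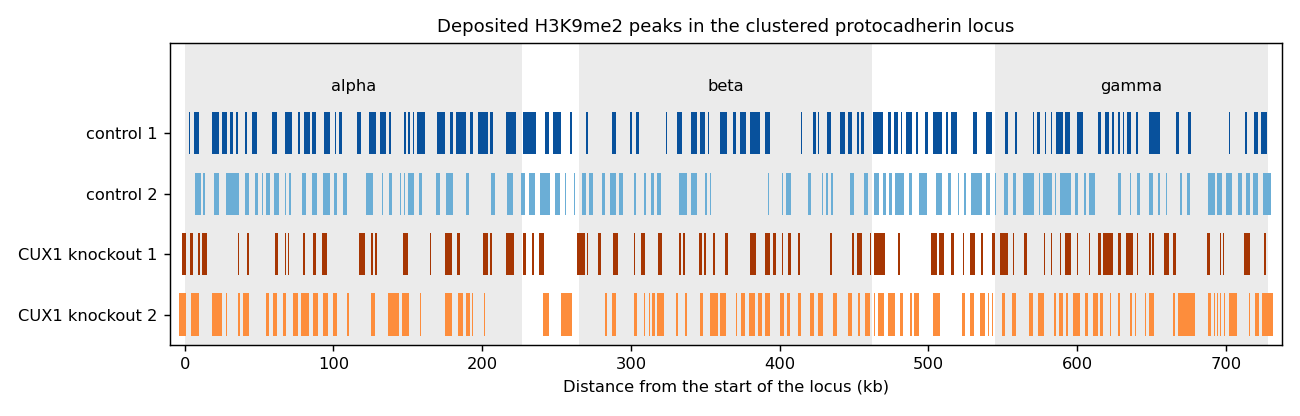
Map of the deposited peaks of each library across the locus, with the distance from its start in kb on the horizontal axis and a row for each library. Blocks are peaks drawn to scale, and grey bands are alpha, beta and gamma; few blocks line up in all rows, and knockout replicate 2 has no peak around the end of alpha.

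The widest peak of each library fell in a different stretch. In control replicate 1 it was chr5:140392789-140400982, 8194 bp just past the end of alpha, of which control replicate 2 covered 61.4%, knockout replicate 1 28.4% and knockout replicate 2 none. In control replicate 2 it was chr5:140192601-140201562, 8962 bp in alpha, of which control replicate 1 covered 50.0% and the knockouts 9.35% and 15.9%. The widest peak of knockout replicate 1, chr5:140628436-140636133 (7698 bp), lay just past the end of beta and was covered to at least 60.3% in each other library. In knockout replicate 2 it was chr5:140833085-140844073, 10989 bp in gamma, covered to 25.4% and 25.8% in the control libraries and not at all in knockout replicate 1. How often the widest peaks of other regions are missing from the other group's lists was not measured.

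Except in control replicate 1, the strongest peak by −log10 p was narrower than the median peak of its list. In control replicate 1 it was chr5:140716314-140718792 in gamma, 2479 bp against a median of 2335 bp. Its −log10 p was 3.04 and its fold 2.62, and it was covered to 93.7%, 96.2% and 20.7% in the other lists. In control replicate 2 it was chr5:140235347-140236369 in alpha (−log10 p 2.29), which control replicate 1 covered in full and neither knockout covered. In knockout replicate 1 it was chr5:140307448-140307874 in alpha, 427 bp with a −log10 p of 3.59 and a fold of 3.04, covered in full by the other knockout and by neither control. In knockout replicate 2 it was chr5:140792263-140793640 in gamma (−log10 p 3.26), of which every other library covered at least 84.5%. The caller's q was above 0.05 for all of them.

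Little of the locus lay under peaks in every library. Peaks of all 4 lists covered 3.42% of its bases (24886 bp in 28 stretches), against 1.97% and 2.00% of the flanks. No list covered 28.6% of the locus, and 1 list alone covered 33.4%. The longest stretch covered in all 4 libraries was chr5:140258440-140260777, 2338 bp in alpha. By sub-cluster the share in all 4 was 4.70% in alpha, 1.47% in beta and 4.35% in gamma, and between alpha and beta it was 0.

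Both controls and neither knockout covered 38334 bp (5.27% of the locus, 48 stretches). The longest of these was chr5:140414047-140417522, 3476 bp between alpha and beta. Both knockouts and neither control covered 18239 bp (2.51%, 34 stretches), of which the longest was chr5:140714365-140716091, 1727 bp in gamma. The flanks held similar shares, 5.09% and 5.60% control-only and 2.62% and 2.13% knockout-only, and the control lists cover more in all. Between alpha and beta control-only sequence made up 17.8% of the bases and knockout-only sequence 0, while in gamma the shares were 2.72% and 3.22%. The longest stretch that no library covered was chr5:140844074-140852263, 8190 bp in gamma.

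Pairs of libraries of the same group shared about as much of the locus as pairs from different groups. The Jaccard index, bases under both lists over bases under either, was 0.288 within the control group and 0.231 within the knockout group, and the 4 pairs across groups had 0.233 to 0.282. Over chromosomes 1 to 22 and X it was 0.230, 0.157 and 0.160 to 0.221, lower than in the locus for each pair. In beta the controls had the lowest index of the 6 pairs, 0.145, while there the knockouts shared 0.235. The lists held 188, 191, 173 and 192 peak edges inside the locus. Between 21.8% and 34.1% of the edges of a list had an edge of another list within 500 bp, against 20.4% to 23.7% genome-wide. Both measures depend on how densely a stretch is covered, and the locus was covered above the genome-wide share in each list. No adjustment was made for this, so the higher values in the locus do not show closer agreement between libraries.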

How the data were processed

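H3K9me2 was mapped by CUT&RUN in 2 control and 2 CUX1 knockout libraries of K562, grouped by their titles. The submitters' processing notes list deepTools 3.5.1, MACS2 2.1.0, SAMtools 1.16.1 and BWA 0.7.17, and the build hg19. Their settings, any background library and the read depth are not given in the sources used here. Each library was deposited by the authors as 250000 broad peaks. The deposited score, the fold (a ratio over the caller's background) and the −log10 of p and q are per-peak values of the authors and served to rank, filter or describe peaks. A list cut at a fixed number of peaks ends at a different p in each library, which moves percent covered.

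Percent covered was computed for the locus, its stretches, its flanks and 20-kb windows, and a two-sided exact permutation test compared the group means. Windows with a mean of at least 1% were tested with limma 3.58.1 in R 4.3.3, with eBayes and its trend option and a Benjamini-Hochberg adjusted threshold of 0.05. A window belongs to the stretch that holds its centre. Windows named were those with the highest mean and the lowest p in each sub-cluster, and peaks named were the widest and strongest of each library. The stretches named were the longest of each kind. Members and lists were chosen with earlier results of these data known. Windows of the same length as the locus and sub-clusters were added after seeing the data. On simulated data with known differences placed in densely covered windows, 77% of differences of 20 points and 13% of 10 points were recovered in 3857 windows of the locus length, with 5 false calls, while 0% of 60 and of 40 points were recovered in 132482 windows of 20 kb. Promoters were read from RefSeq (GRCh38.p14); gene positions on hg19 were not used here.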

Additional observations from a re-analysis of the deposited data

How the results depend on the processing

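The limits are mainly those of 2 libraries a group, unknown depth and lists that end at different p-values. The locus difference turned positive with 1 limit on −log10 p (6.81 points), 1 limit on −log10 q (10.0), peaks per 100 kb by serial number (3.02 peaks), division by the genome-wide share (a ratio, 0.176) and quantile normalization (4.39). Gamma turned positive under the same 5 (10.2, 8.45, 2.46, 0.383 and 7.48) and with equal covered length (4.35). Alpha turned under the first 3 (4.01, 12.1 and 4.41), and beta with the strongest 100000 peaks (-0.0137). The log2 locus-to-flank ratio turned under the first 3 (0.025, 0.193 and 0.054). The cause was not tested.

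Leaving out 1 library gave -11.0 to -1.94 points for the locus, -16.5 to -5.07 for alpha, -2.40 to 5.42 for beta, -7.92 to 2.49 for gamma and -0.109 to 0.091 for the ratio. Beta was negative without knockout replicate 2 (-2.40) or control replicate 2 (-0.03). Gamma was positive without knockout replicate 1 (1.95) or control replicate 2 (2.49). The ratio was positive without knockout replicate 2 (0.091) or control replicate 2 (0.0022).

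No 20-kb window of the locus passed limma under any alternative that kept all 4 libraries (at an unadjusted p under 0.05, 0 to 3 windows). At this window size the test made no calls on simulated data, so this says nothing about stability. With windows of 100 kb, 0 of 7 in the locus passed, against 27 of 27547 genome-wide, and that size was not simulated. The alpha window of highest mean changed sign with gaps filled (-2.53), the strongest 100000 peaks (-2.59), and leaving out 1 library (-11.1 to 15.3, negative without knockout replicate 2, -11.1, or control replicate 2, -1.01). The alpha window of lowest p did so with 1 p limit (4.31), and the beta window of highest mean without control replicate 2 (-12.6, with up to 40.4 on leaving out another library). The gamma window did so with 1 p limit (26.3), 1 q limit (12.2) and the strongest 100000 peaks (11.4). With the replicate number as a block the differences were the same (-6.45 for the locus, and 0 windows called by limma). An exact permutation test that flips the signs of the paired differences gave p = 0.5 for the locus, the smallest it can give. Replicate 1 minus replicate 2 in the controls was set against the same in the knockouts, window by window. Pearson's r was 0.019 genome-wide and 0.18 over the 37 windows of the locus. This cannot tell whether the numbers pair the libraries. The 2 settings with windows of the same length were chosen after seeing the data.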

Other observations

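The serial numbers in the peak names run past the listed peaks. If these count every call, an assumption, the locus held 121 and 118 calls in the control libraries and 158 and 125 in the knockout libraries. That is 16.6, 16.2, 21.7 and 17.2 per 100 kb, of which 77.7%, 81.4%, 54.4% and 76.8% were listed. In alpha 44.0% of the numbers of knockout replicate 1 were listed, against 83.8% and 83.3% in the controls and 62.8% in knockout replicate 2. In beta the shares were 68.8% and 66.7% in the control libraries, and 56.8% and 89.7% in the knockout libraries.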
